A study of Mus musculus with 4 samples.

Results

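The transcripts described here encode subunits of the ATP-dependent chromatin remodeling complexes outside the CHD family, named by a list of 40 genes: 17 of SWI/SNF, 7 of ISWI, 8 of the INO80, SRCAP and EP400 complexes, 5 of NuRD and 3 further ATPases of the SNF2 family. A gene counted as a member where its symbol equalled a listed name in both tables of the series. That held for 39 of the 40. Srcap was not analysed here. Of the 39, 37 averaged at least 1 FPKM (fragments per kilobase of transcript, scaled to sequencing depth) over the 4 libraries and were tested among 10261 genes. Smarca2 and Smarcd3 lay below that level, and their values are given without a test.

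The study compared Chd1-/- with Control mouse embryonic stem cells, 2 libraries each, in serum medium with LIF. Both groups came from Rosa26CreER;Chd1fl/- cells, so Control cells carried 1 floxed and 1 null Chd1 allele and the tamoxifen-activated Cre as well. Chd1-/- cells had received 1 µM tamoxifen for 48 to 72 h and Control cells ethanol, and both were then grown without it for 3 to 5 passages. RNA was taken from equal numbers of viable cells and carried a spike-in of synthetic transcripts. For every library 1 µg of RNA and 1 µL of the spike-in, diluted 10-fold, are recorded. The part of the spike-in in the scaling is not given, so whether the values are per cell is unknown. Each of 2 sets holds 1 Chd1-/- and 1 Control library, and 2 lines were derived independently, but no label ties a set to a line. Pairs of values below give set 1 and then set 2. Read depth is unknown, since the tables hold FPKM.

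Chromatin remodelers use ATP to slide, eject or exchange nucleosomes. SWI/SNF complexes open regulatory DNA and, in mouse embryonic stem cells, are built around Smarca4 and Smarcc1. ISWI complexes space nucleosomes, the INO80 and SRCAP complexes exchange histone variants, and NuRD couples remodeling to histone deacetylation. Chd1 belongs to a separate remodeler family found at transcribed genes, so the question here is how the transcripts of the other remodelers stood when Chd1 was deleted.

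Chd1 was read first as the check of the labels. It stood at 5.71 FPKM in the Chd1-/- library of set 1 and 8.52 FPKM in that of set 2, against 27.6 and 17.9 FPKM in the Control libraries. It fell by 1.66 on the log2 scale (limma SE 0.25, n = 2 pairs, limma adjusted p = 1.8e-08), with log2 ratios of -2.25 in set 1 and -1.06 in set 2. The values cover the whole locus, so what remains does not measure functional transcript. All 10 embryonic stem cell markers examined were listed in both sets, with summed levels of 2106 and 1984 FPKM in Chd1-/- cells, against 2842 and 3531 FPKM in Control cells, and 8 of them fell, where 9.80% of all genes did. None of the 10 passed relative to the median shift of all genes (0 in limma; 4 at an unadjusted p under 0.05, Nanog, Esrrb, Klf4 and Utf1). Of 8 primitive endoderm markers 2 were listed, summing to at most 1.31 FPKM in any library. The summed levels of 6 listed fibroblast markers were 14.8 and 18.9 FPKM in Chd1-/- cells, against 10.6 and 46.7 FPKM in Control cells. Most of each sum was Acta2, at 12.1 and 14.4 FPKM in Chd1-/- cells, against 7.93 and 38.4 FPKM in Control cells. Col1a1, Col1a2, Thy1 and Dcn were each under 2 FPKM in every library. For 6 listed neural markers the summed levels were 31.3 and 28.5 FPKM, against 49.5 and 34.7 FPKM. For 4 listed trophectoderm markers they were 19.2 and 6.41 FPKM, against 40.5 and 11.1 FPKM. In these 2 lists Tubb3 and Tfap2c fell. Nes, also of the neural list, went the other way in both sets. It stood at 14.0 and 12.2 FPKM in Chd1-/- cells, against 11.9 and 9.37 FPKM in Control cells. Nes was not called (limma adjusted p = 0.38). Tfap2c alone had 15.1 and 3.49 FPKM in Chd1-/- cells, against 31.2 and 8.04 FPKM in Control cells. The part of these cell types in the results below was not tested. In bulk RNA, fewer cells of a type and less RNA per cell cannot be told apart.

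The proximal promoters of 4 members that fell are shown because these 4 kept their call when each set's dependence of the ratio on expression level was removed. Mbd3 is a subunit of NuRD and Smarcb1 a core subunit of SWI/SNF. Hells is a SNF2 ATPase needed for DNA methylation of repeats. Baz2a is the partner of the ISWI ATPase in the nucleolar complex that silences ribosomal DNA. Each sequence runs from 250 bases before to 50 bases after the annotated start, 5′ to 3′ on the gene's strand, from RefSeq on build GRCm38.p6 (the submitters' notes name mm9 for the deposited values). Capitals mark CCAAT or GGGCGG, read on either strand. They lie at chr10:80399482-80399781 (Mbd3, minus strand), chr10:75921565-75921864 (Smarcb1, minus strand), chr19:38930740-38931039 (Hells, plus strand) and chr10:128092533-128092832 (Baz2a, plus strand).
Mbd3: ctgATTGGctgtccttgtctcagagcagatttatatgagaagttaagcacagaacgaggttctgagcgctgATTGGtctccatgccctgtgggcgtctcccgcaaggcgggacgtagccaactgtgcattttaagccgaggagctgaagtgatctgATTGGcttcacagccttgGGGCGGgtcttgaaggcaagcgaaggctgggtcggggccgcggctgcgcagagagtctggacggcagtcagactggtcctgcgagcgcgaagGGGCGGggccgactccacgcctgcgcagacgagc
Smarcb1: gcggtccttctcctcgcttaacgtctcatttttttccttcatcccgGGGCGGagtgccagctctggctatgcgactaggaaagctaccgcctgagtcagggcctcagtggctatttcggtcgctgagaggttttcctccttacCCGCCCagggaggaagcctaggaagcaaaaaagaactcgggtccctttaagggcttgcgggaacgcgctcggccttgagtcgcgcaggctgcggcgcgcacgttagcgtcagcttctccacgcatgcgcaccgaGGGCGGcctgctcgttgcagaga
Hells: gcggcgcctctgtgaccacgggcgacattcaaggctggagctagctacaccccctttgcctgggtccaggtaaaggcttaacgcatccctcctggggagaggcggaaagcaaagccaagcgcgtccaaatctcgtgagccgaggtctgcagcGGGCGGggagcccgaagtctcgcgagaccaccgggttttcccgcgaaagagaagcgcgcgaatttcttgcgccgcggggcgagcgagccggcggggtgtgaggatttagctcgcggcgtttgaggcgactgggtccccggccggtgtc
Baz2a: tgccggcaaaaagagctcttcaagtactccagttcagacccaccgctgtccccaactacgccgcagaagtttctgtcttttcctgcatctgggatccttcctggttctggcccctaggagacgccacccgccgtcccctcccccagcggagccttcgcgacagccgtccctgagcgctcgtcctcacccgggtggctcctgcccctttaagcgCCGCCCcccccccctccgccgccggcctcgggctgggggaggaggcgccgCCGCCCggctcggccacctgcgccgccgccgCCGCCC

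The Mbd3 promoter held 3 CCAAT motifs and 2 GGGCGG motifs. Those of Smarcb1, Hells and Baz2a held no CCAAT and 3, 1 and 3 copies of GGGCGG. RefSeq promoters were matched for 35 members, with 41 promoters in all since some genes have several starts. GGGCGG, the core of the GC box bound by Sp1, was in 90.2% of these 41, against 65.6% of 9959 promoters of tested genes and 35.7% of all 32851 promoters of this length. CCAAT was in 31.7%, against 38.4% and 37.4%. The members' promoters had a median of 27 CG dinucleotides, against 21 for tested genes and 7 for all promoters. These are descriptions of letters in a window, not sites of binding.

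On the deposited scale, which compares amounts per cell as far as the authors' scaling does, 7 of the 37 tested members fell and 0 rose (limma, adjusted p under 0.05; 21 at an unadjusted p under 0.05). Over all genes tested the same call was made for 9.80% in the downward and 0.0682% in the upward direction. An unadjusted limma p under 0.05 was reached by 2995 of the 10261 genes. The 7 are Smarcb1, Smarcd1, Smarcd2 and Arid1a of SWI/SNF, Baz2a of ISWI, Mbd3 of NuRD and the SNF2 ATPase Hells. Their log2 fold changes ran from -1.19 for Baz2a to -0.53 for Hells. Across the 37 members the log2 ratios had medians of -0.64 (set 1) and -0.23 (set 2), beside -0.46 and -0.33 for all genes; after division of every library by its summed FPKM, which moved the medians of all genes to -0.14 and 0.14, the members' medians were -0.32 and 0.25. Of the 37, 27 were lower in both sets and 0 higher in both, where 72.4% of all genes were lower in both. Both Chd1-/- libraries lay below both Control libraries for 22 members, and that held for 52.6% of all genes.

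The count of 7 rests on the variance model and the scaling. It was 1 (Mbd3) with a floor of 5 FPKM, 4 with each set's level trend removed, and 0 without set as a block, with one common prior variance or after division by library totals (5, 5 and 2 members at an unadjusted limma p under 0.05).

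**Figure D1:**
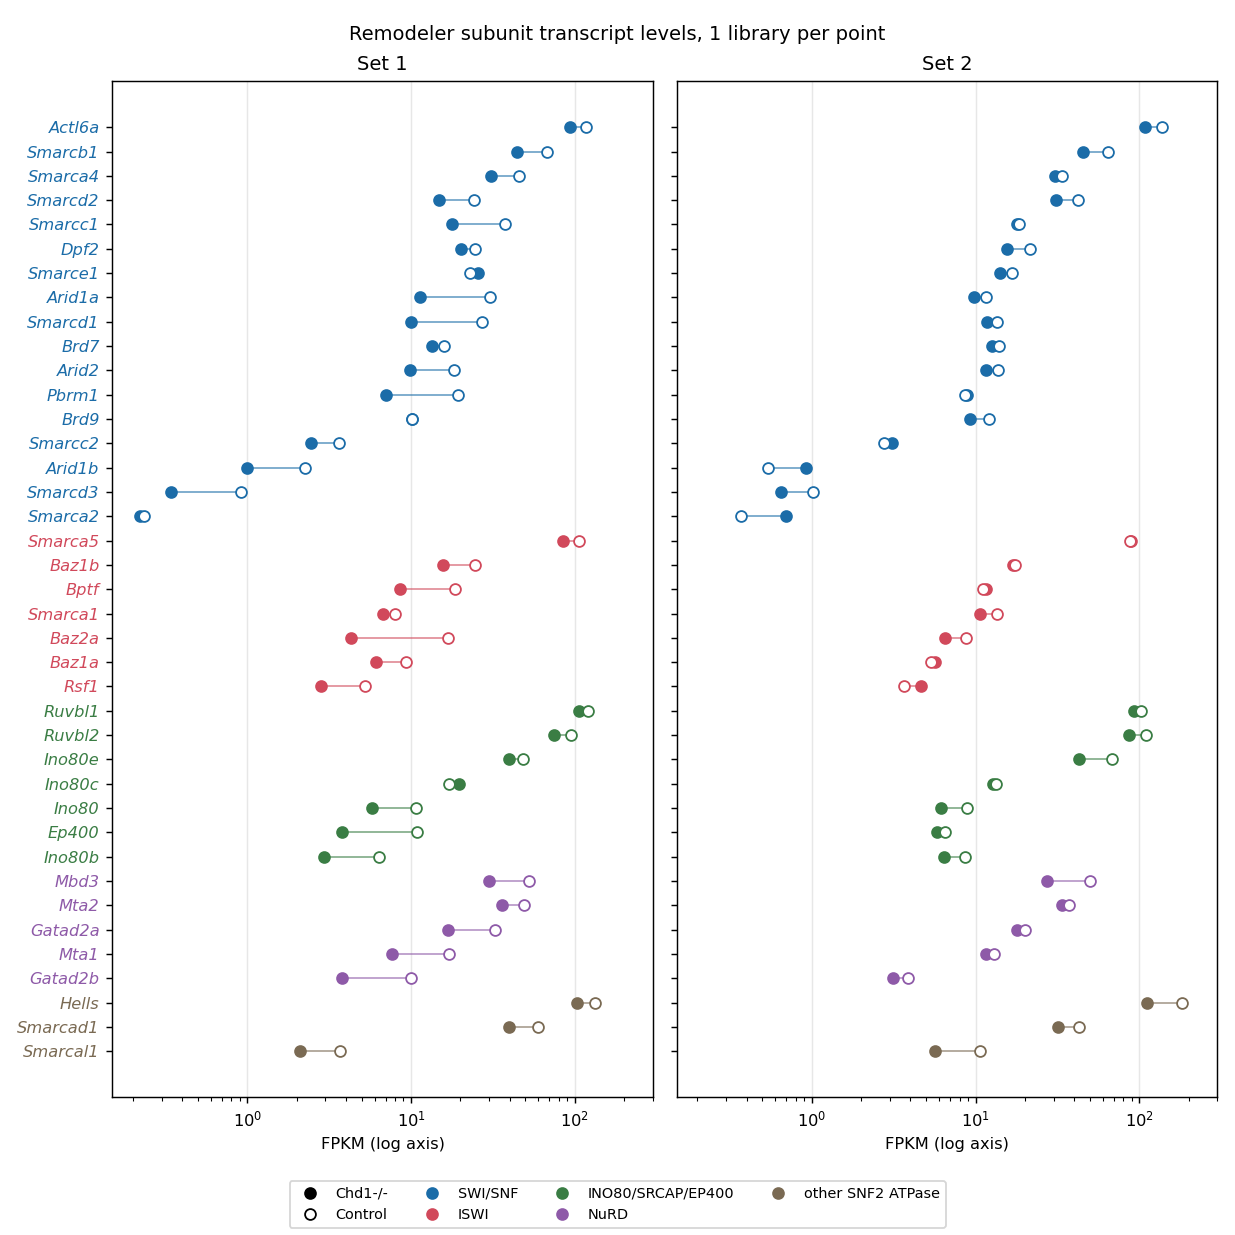
FPKM of the 39 listed remodeler subunits (log axis), 1 library per point, in set 1 (left) and set 2 (right); filled points are Chd1-/- and open points Control, and colour gives the complex. In set 1 Baz2a stood at 4.28 FPKM in Chd1-/- cells against 16.8 FPKM in Control cells, while in set 2 it stood at 6.53 FPKM against 8.81 FPKM.

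SWI/SNF had 4 of 15 tested members that fell and 0 that rose, where 9.80% of all genes fell and 0.0682% rose. With so few genes the count says little about the complex. Smarcb1, a core subunit lost in rhabdoid tumours, stood at 44.2 FPKM in the Chd1-/- library of set 1 and 45.2 FPKM in that of set 2, against 68.0 and 64.7 FPKM in the Control libraries. Both Chd1-/- libraries were below both Control libraries, by like amounts in the sets. The fall was 0.57 on the log2 scale (limma SE 0.18, adjusted p = 0.0255), with an SD of 0.07 between the sets' log2 ratios. This SE and those below come from a variance shared by genes of similar level, not from a gene's own spread.

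Smarcd2, one of the alternative subunits that bridge the complex to transcription factors, had 14.8 and 31.1 FPKM in Chd1-/- cells of sets 1 and 2, against 24.4 and 42.0 FPKM in Control cells. It was lower within each set, while its groups overlapped across sets. It fell by 0.58 (SE 0.20, limma adjusted p = 0.0470) and missed the threshold with a pseudocount of 1 FPKM. Without the block, its log2 fold change was -0.04 when the Chd1-/- library of set 1 was left out and -1.11 when that of set 2 was. Its paralog Smarcd1 had 9.96 and 11.8 FPKM in Chd1-/- cells, against 27.3 and 13.6 FPKM in Control cells, without overlap. Smarcd1 fell by 0.82 (SE 0.24, limma adjusted p = 0.0130), mostly through set 1, where 36.5% of the Control value remained. In set 2 it was 86.9%. Smarcd1 overlaps a coding gene on the opposite strand, and the use of strand in counting is not given, so its values are less certain. The third paralog, Smarcd3, stood at 0.344 and 0.646 FPKM in Chd1-/- cells, against 0.922 and 1.02 FPKM in Control cells, and was not tested.

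Arid1a, the subunit that marks the canonical BAF form of SWI/SNF, had 11.3 and 9.83 FPKM in Chd1-/- cells, against 30.2 and 11.7 FPKM in Control cells. The 3 values other than Control of set 1 were close to each other. It fell by 0.83 (SE 0.24, limma adjusted p = 0.0134), with log2 ratios of -1.41 in set 1 and -0.24 in set 2. Fitted without the block, it stood at -0.14 when Control of set 1 was left out and at -1.51 when Control of set 2 was. Its paralog Arid1b stood at 0.990 and 0.925 FPKM in Chd1-/- cells, against 2.24 and 0.539 FPKM in Control cells, so it was lower in set 1 and higher in set 2 (log2 fold change -0.21, limma adjusted p = 0.84). Subunits of PBAF, the form with Pbrm1, Arid2 and Brd7, had log2 fold changes of -0.72 for Pbrm1 (adjusted p = 0.0582), -0.56 for Arid2 (0.110) and -0.19 for Brd7 (0.56). Pbrm1 went opposite ways, at -1.46 in set 1 and 0.02 in set 2. Brd9, of the form that lacks both ARID subunits and Pbrm1, was at -0.18 (adjusted p = 0.61).

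The catalytic subunit Smarca4 stood at 30.8 and 30.5 FPKM in Chd1-/- cells, against 45.9 and 33.5 FPKM in Control cells. Its groups did not overlap, but the log2 fold change of -0.35 (SE 0.19) did not pass (limma adjusted p = 0.20). Smarcc1, the scaffold subunit of the embryonic stem cell complex, had 17.8 and 17.9 FPKM in Chd1-/- cells, against 37.5 and 18.5 FPKM in Control cells. As for Arid1a, 3 values were close and Control of set 1 was higher (log2 fold change -0.56, limma adjusted p = 0.0663). Actl6a, an actin-related subunit shared with INO80 and EP400, was even between the sets, with log2 ratios of -0.32 and -0.34 (adjusted p = 0.17). Dpf2, a reader of acetylated histones, stood at -0.37 on the log2 scale (adjusted p = 0.23). For Smarce1, an HMG-box subunit, the value was -0.03 (adjusted p = 0.92), and reads of it can be shared with the pseudogene Smarce1-ps1.

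**Figure D2:**
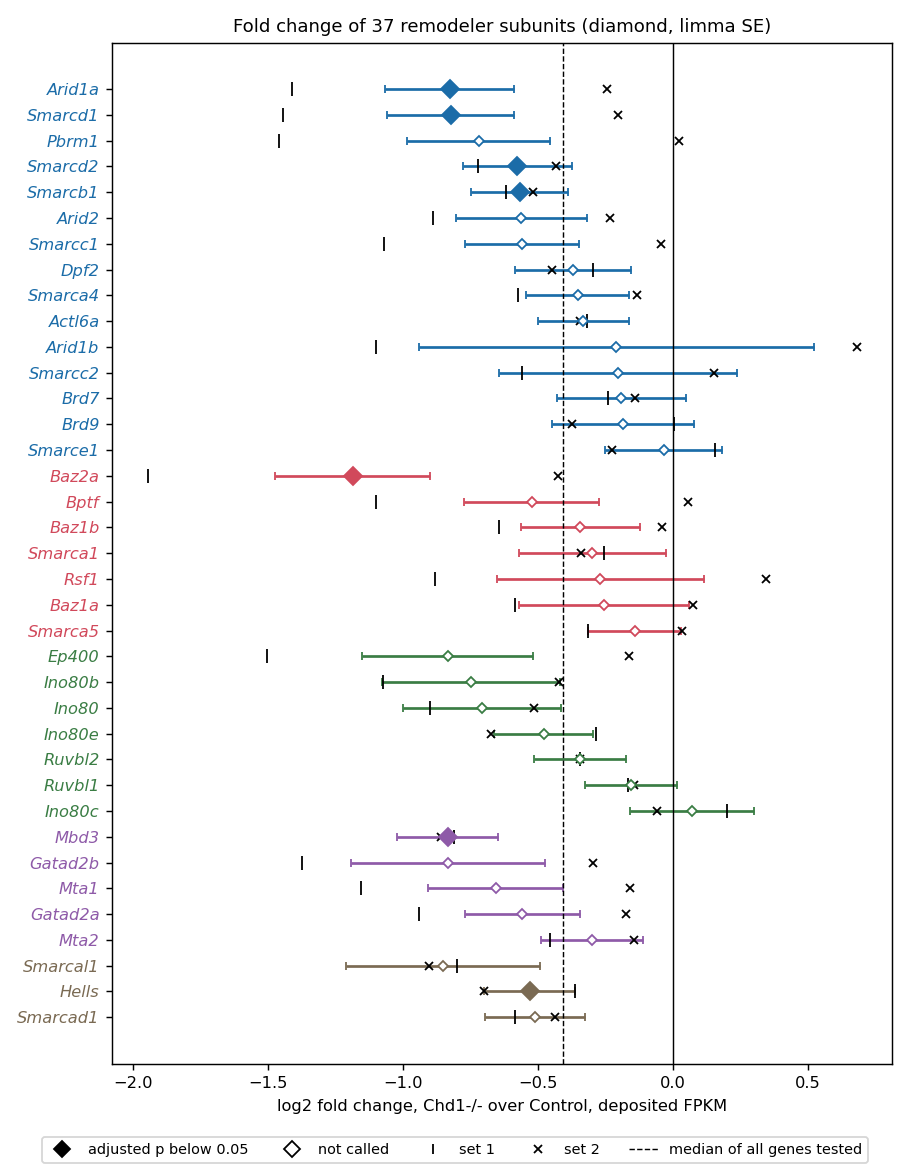
Log2 fold change of the 37 tested members on the deposited FPKM scale (diamonds, bars are the limma SE; large filled diamonds passed an adjusted p of 0.05), with the log2 ratio of set 1 (tick) and set 2 (cross). Ticks and crosses lie together for Mbd3, Smarcb1 and Ruvbl2 and far apart for Baz2a, Pbrm1 and Ep400.

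Of 7 ISWI members 1 fell and 0 rose, where 9.80% of all genes fell. Baz2a had 4.28 and 6.53 FPKM in Chd1-/- cells, against 16.8 and 8.81 FPKM in Control cells. Both Chd1-/- values were below both Control values, and 25.5% of the Control value remained in set 1 and 74.1% in set 2. It fell by 1.19 (SE 0.29, limma adjusted p = 0.00245), with an SD of 1.07 between the log2 ratios of the sets. Neither ISWI ATPase passed the test. Smarca5, the main ISWI ATPase of embryonic stem cells, stood at 85.3 and 89.5 FPKM in Chd1-/- cells, against 106.3 and 87.5 FPKM in Control cells (log2 fold change -0.14, limma adjusted p = 0.55), though a pseudogene, Smarca5-ps, can share its reads. Smarca1, its neural-enriched paralog, had 6.71 and 10.7 FPKM in Chd1-/- cells, against 8.04 and 13.5 FPKM in Control cells (groups overlapped; log2 fold change -0.30, adjusted p = 0.43).

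The remaining ISWI partners were lower in set 1 and near or above their Control in set 2. Bptf, the large subunit of NURF that reads methylated histone H3, had 8.62 and 11.6 FPKM in Chd1-/- cells, against 18.6 and 11.2 FPKM in Control cells, and its groups overlapped (log2 fold change -0.52, limma adjusted p = 0.15). The log2 ratios of Rsf1, a partner of Smarca5 in chromatin assembly, were -0.88 and 0.35. Those of Baz1a, the large subunit of ACF, were -0.59 and 0.08, and those of Baz1b, the Williams syndrome transcription factor, -0.64 and -0.04. None of these passed the test. Bptf, Rsf1, Baz1a and Smarca5, 4 of 7 ISWI members, had opposite directions in the sets. Over all 37 members this held for 10, or 27.0%, close to the 24.8% of all genes.

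No tested member of the INO80, SRCAP and EP400 complexes fell or rose (0 of 7 in limma, 5 at an unadjusted p under 0.05). Over all genes tested 9.80% fell, and 2995 of 10261 had an unadjusted limma p under 0.05. Ruvbl1 and Ruvbl2, the paired AAA ATPases that all 3 complexes share, had the lowest SDs between sets of the tested members. Ruvbl1 had 106.7 and 93.1 FPKM in Chd1-/- cells, against 119.7 and 103.0 FPKM in Control cells, and Ruvbl2 had 75.1 and 86.4 FPKM, against 95.2 and 109.8 FPKM. The log2 ratios were -0.17 and -0.15 for Ruvbl1 and -0.34 and -0.35 for Ruvbl2, and the groups overlapped for Ruvbl1 only (limma adjusted p = 0.51 and 0.16). Among the ATPases, Ep400 had 3.79 and 5.81 FPKM in Chd1-/- cells, against 10.9 and 6.52 FPKM in Control cells. Its groups did not overlap, and its log2 fold change was -0.84 (SE 0.32, limma adjusted p = 0.0658). Ino80 had log2 ratios of -0.90 and -0.52 (limma adjusted p = 0.0945).

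The small INO80 subunits spread widely. Ino80b had 2.96 and 6.43 FPKM in Chd1-/- cells, against 6.34 and 8.66 FPKM in Control cells (groups overlapped; log2 fold change -0.75, limma adjusted p = 0.12). Ino80e stood at -0.29 and -0.67 in the sets (adjusted p = 0.0669), so here set 2 had the lower ratio. Ino80c was the 1 tested member with a positive log2 fold change, 0.07 (SE 0.23, adjusted p = 0.83), at 0.20 in set 1 and -0.06 in set 2.

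In NuRD 1 of 5 members fell and 0 rose, and all 5 were lower in both sets, with both Chd1-/- libraries below both Control libraries. Over all genes 9.80% fell, 72.4% were lower in both sets and 52.6% had groups that did not overlap in this direction, so the counts of 5 genes say little about the complex. Mbd3, which holds NuRD together and is required for embryonic stem cells to leave self-renewal, had 30.1 and 27.5 FPKM in Chd1-/- cells, against 52.9 and 49.9 FPKM in Control cells. Of the Control value, 56.9% remained in set 1 and 55.1% in set 2. The fall of 0.84 (SE 0.19, limma adjusted p = 0.000997) had an SD of 0.03 between the sets' log2 ratios, and Mbd3 was the member that kept its call with the floor of 5 FPKM.

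The paralogous NuRD subunits had lower ratios in set 1. Gatad2b, a zinc finger subunit, had 3.81 and 3.13 FPKM in Chd1-/- cells, against 10.0 and 3.86 FPKM in Control cells (log2 fold change -0.83, limma adjusted p = 0.11). Gatad2a had 16.8 and 17.8 FPKM in Chd1-/- cells, against 32.4 and 20.2 FPKM in Control cells (adjusted p = 0.0681). Of the metastasis-associated subunits, Mta1 had 7.63 and 11.7 FPKM in Chd1-/- cells, against 17.1 and 13.0 FPKM in Control cells (log2 fold change -0.66, limma adjusted p = 0.0684), and Mta2 had 35.9 and 33.5 FPKM, against 49.3 and 37.1 FPKM (-0.30, adjusted p = 0.26).

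Of the 3 further SNF2 ATPases 1 fell and 0 rose, where 9.80% of all genes fell. Hells had 102.8 and 112.0 FPKM in Chd1-/- cells, against 132.3 and 181.9 FPKM in Control cells. Both Chd1-/- values were below both Control values, and set 2 had the lower ratio (log2 ratios -0.36 and -0.70). It fell by 0.53 (SE 0.17, limma adjusted p = 0.0271). Smarcal1, an annealing helicase of stalled replication forks, had 2.09 and 5.64 FPKM in Chd1-/- cells, against 3.71 and 10.7 FPKM in Control cells. Its groups overlapped across sets, with like ratios within them, at 56.3% and 52.98% of Control, but at its low level the log2 fold change of -0.85 (SE 0.36) did not pass (limma adjusted p = 0.0998). Smarcad1, which keeps silent chromatin through replication, was at -0.51 (adjusted p = 0.0549).

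The second comparison subtracted the median log2 ratio of all genes from each set, so that a member is read against the typical gene. No member passed (0 of 37 fell and 0 rose in limma, lowest adjusted p = 0.35; 2 at an unadjusted p under 0.05, Baz2a and Mbd3). Over all genes 0.214% fell and 0.146% rose, and 645 of 10261 had an unadjusted limma p under 0.05. Missing the threshold does not show that the members' values did not differ. Baz2a was at -0.79 relative to the median and Mbd3 at -0.44. Of the 7 members that fell on the deposited scale, Smarcb1, Smarcd2, Baz2a and Mbd3 lay below the median of all genes in both sets. Smarcd1 and Arid1a lay below it in set 1 (at -0.99 and -0.95) and above it in set 2 (at 0.13 and 0.08), whereas Hells lay at 0.10 in set 1 and -0.37 in set 2.

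The sets placed many members, but not all, on different sides of the genome-wide shift. Below the median of all genes lay 24 of 37 members in set 1 and 15 of 37 in set 2. Below it in set 1 and above it in set 2 were 16 members, or 43.2%, where 25.4% of all genes were. At least 1.5-fold lower were 22 members in set 1 and 4 in set 2, where 40.5% and 23.7% of all genes were, and 2 members (Mbd3 and Smarcal1) in both sets, where 10.8% of all genes were. The difference between the sets could not be tested, since each has 1 library per group.

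**Figure D3:**
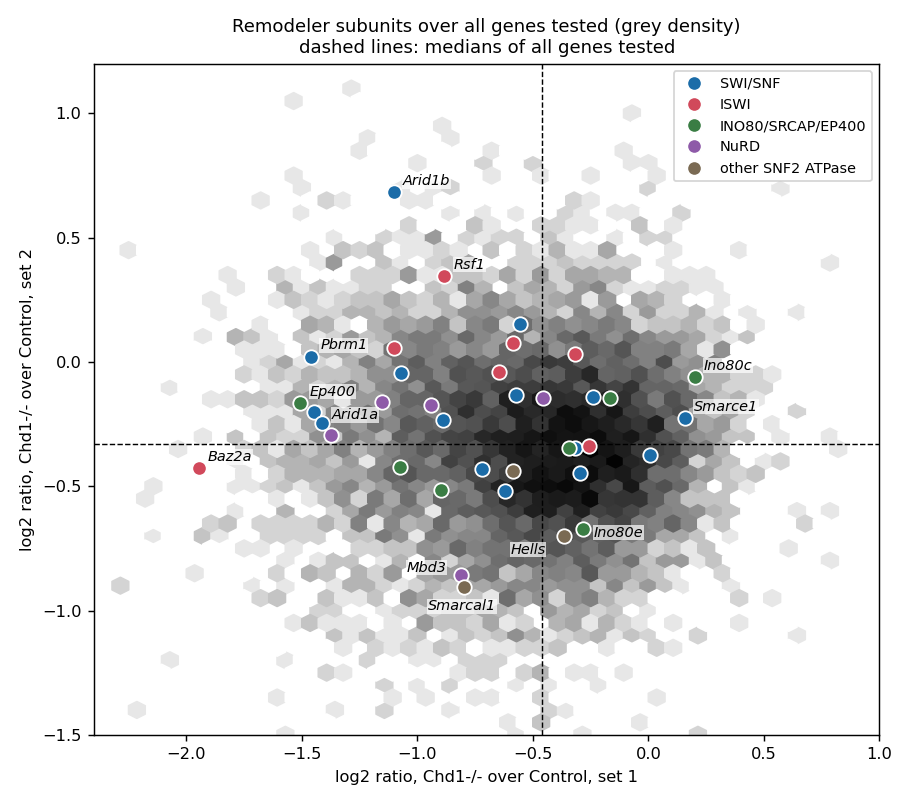
Log2 ratio of Chd1-/- over Control in set 1 (x axis) against set 2 (y axis) for the 37 tested members, coloured by complex, over the density of all 10261 genes tested (grey); dashed lines are the medians of all genes, -0.46 and -0.33. Mbd3 and Smarcal1 are low on both axes, while Baz2a, Ep400, Arid1a and Pbrm1 are far left and close to the median of set 2 or above it.

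Long members had the lower ratio in set 1. A few members are named for their difference between the sets (log2, set 1 minus set 2), picked after their values were seen. It was -1.24 for Smarcd1 (3307 bases), -1.02 for Smarcc1 (5773 bases) and -1.0 for Mta1 (2826 bases). For Smarca5 (6113 bases) and Ino80 (6354 bases) it was -0.35 and -0.38. Members were grouped by the longest coding transcript in the GENCODE vM21 annotation, in bins chosen after the values were seen and given as a description. For the 14 members of at least 6000 bases, among them Bptf, Arid1b, Rsf1, Ep400, Baz2a, Arid1a, Pbrm1 and Gatad2b, the medians of the log2 ratios were -1.0 (set 1) and -0.09 (set 2). Every one of these 14 had the lower ratio in set 1, as had 26 of all 37 members and 57.9% of all genes. Among the 1272 tested genes of that length the medians were -0.86 and -0.16, and 90.2% had the lower ratio in set 1. The 12 members under 3000 bases, such as Smarcb1, Mbd3, Ruvbl1, Actl6a and the small INO80 subunits, had medians of -0.33 and -0.36, beside -0.29 and -0.40 for 4608 genes. The 11 members between these limits had -0.56 and -0.20, beside -0.53 and -0.31 for 3745 genes.

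Across the 37 members Spearman's rho between transcript length and log2 ratio came to -0.53 (set 1) and 0.49 (set 2), beside -0.40 and 0.23 across 9625 genes with a length. These are descriptions, since genes of 1 library share its preparation, and length also went with level (rho = -0.45 among members). The part of length in the results above was not tested. Members were expressed above the typical gene, with a median of 15.7 FPKM over the 4 libraries against 9.07 FPKM for all genes tested.

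**Figure D4:**
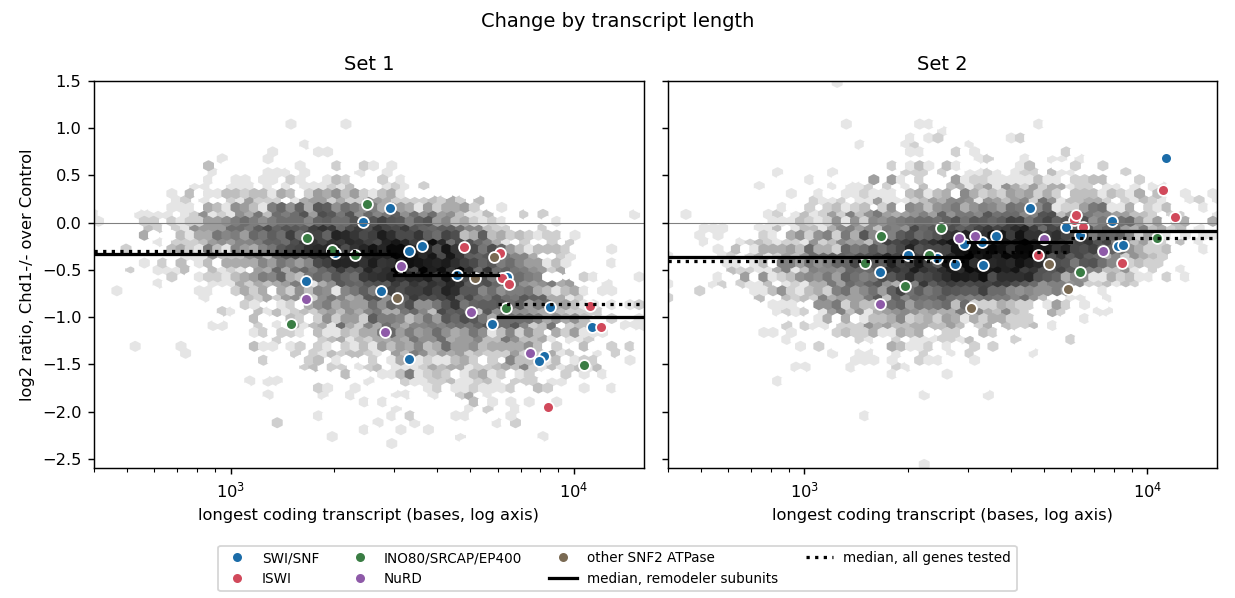
Log2 ratio of Chd1-/- over Control against the longest coding transcript (bases, log axis) in set 1 (left) and set 2 (right), for members (colours) over all genes (grey density); solid lines are the members' medians and dotted lines those of all genes in bins split at 3000 and 6000 bases. In set 1 the members' median steps down to -1.0 in the longest bin, and in set 2 it is -0.09 there.

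Levels were also set side by side across the sets. The 2 tables were deposited separately, so a level set across them carries any difference in their scaling. Control of set 1 was above Control of set 2 for 28 of 37 members, against 52.3% of all genes, with a median log2 difference of 0.39 for members and 0.03 for all genes. Between the Chd1-/- libraries the value of set 1 was the higher for 14 of 37 members, against 42.0% of all genes, and the median log2 differences were -0.10 for members and -0.10 for all genes. All 14 long members were higher in Control of set 1 than in Control of set 2, as were 72.7% of all genes of that length, with median log2 differences of 0.74 and 0.32. Between the Chd1-/- libraries, 5 of the 14 and 20.4% of all genes of that length were higher in set 1, with medians of -0.11 and -0.37. Across all long genes both groups thus differed between the sets, in opposite directions.

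Paralog balance was compared within each library, on FPKM, which is per length. In all 4 libraries Smarca4 exceeded Smarca2, Smarcc1 exceeded Smarcc2, Arid1a exceeded Arid1b, Smarca5 exceeded Smarca1, Mta2 exceeded Mta1 and Gatad2a exceeded Gatad2b. The Smarca2 level was 0.223 and 0.701 FPKM in Chd1-/- cells, against 0.235 and 0.368 FPKM in Control cells, low in every library. Smarca4 took 99.3% and 97.8% of the pair's summed FPKM in Chd1-/- cells, against 99.5% and 98.9% in Control cells. Smarcc2 stood at 2.45 and 3.07 FPKM in Chd1-/- cells, against 3.65 and 2.76 FPKM in Control cells, and the ratio of Smarcc1 to Smarcc2 was 7.28 and 5.83, against 10.3 and 6.71. These are the paralogs of the complex known from embryonic stem cells, and they led in Chd1-/- as in Control libraries.

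In 2 pairs the leading paralog was not the same in all libraries. The ratio of Smarcd1 to Smarcd2 was 0.6749 and 0.381 in Chd1-/- cells, against 1.12 and 0.324 in Control cells, so it was lower than Control in set 1 and higher in set 2. The ratio of Mta2 to Mta1 was 4.71 and 2.87 in Chd1-/- cells, against 2.88 and 2.84 in Control cells, and that of Gatad2a to Gatad2b 4.40 and 5.71, against 3.22 and 5.22. For Smarca5 to Smarca1 the ratios were 12.7 and 8.40, against 13.2 and 6.48, and for Ruvbl1 to Ruvbl2 1.42 and 1.08, against 1.26 and 0.938. The ranges of the groups overlapped for each of these pairs. They did not for Arid1a to Arid1b, at 11.4 and 10.6 in Chd1-/- cells, against 13.5 and 21.6 in Control cells, a ratio in which Arid1b was at most 2.24 FPKM. No paralog ratio was tested, and an exact test of 2 against 2 libraries cannot go below p = 0.333.

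**Figure D5:**
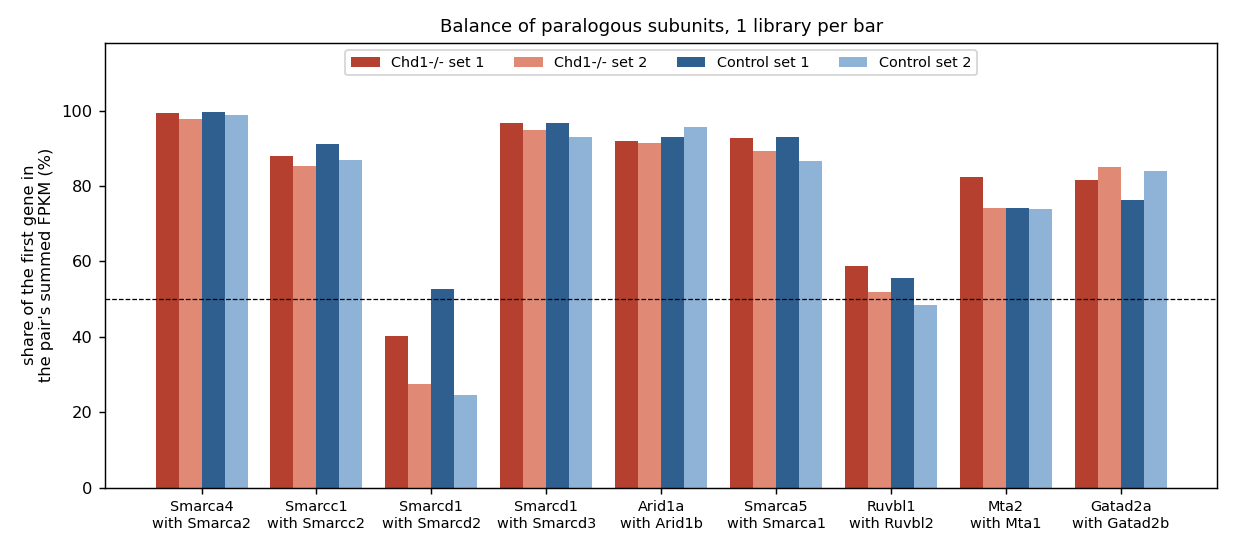
Share of the first-named gene in the summed FPKM of a pair of paralogs (percent, bars from 0), 1 library per bar, Chd1-/- in red and Control in blue; the dashed line is an equal share. The share of Smarcd1 in its pair with Smarcd2 was 40.3% and 27.6% in Chd1-/- cells, against 52.8% and 24.5% in Control cells, and Smarca4 lies near the top in every library.

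Further subunits and relatives of these complexes, 62 symbols by list, were read beside the members. Of these, 56 were listed in both sets and tested; 5 fell and 0 rose (8.93%, beside 9.80% of all genes), with median log2 ratios of -0.45 and -0.29. The NuRD subunit Mta3 had 28.3 and 14.0 FPKM in Chd1-/- cells, against 38.7 and 36.9 FPKM in Control cells, and fell by 0.92 (SE 0.20, limma adjusted p = 0.000502). Hdac1, a histone deacetylase of NuRD, had 36.4 and 32.5 FPKM, against 69.6 and 36.95 FPKM, and fell by 0.56 (SE 0.19, adjusted p = 0.0351). For Mta3 and Hdac1 the Chd1-/- values lay below both Control values, and the larger drop was in set 2 for Mta3 and in set 1 for Hdac1. The other listed deacetylase of NuRD, Hdac2, was named after its values were seen. It had 60.9 and 60.6 FPKM in Chd1-/- cells, against 75.7 and 83.6 FPKM in Control cells, and was not called (log2 fold change -0.39, limma adjusted p = 0.125).

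Phf10, a PBAF subunit, had 13.9 and 13.1 FPKM in Chd1-/- cells, against 24.1 and 24.1 FPKM in Control cells, and fell by 0.83 (SE 0.22, limma adjusted p = 0.00715) with like ratios in the sets. Cecr2, a bromodomain partner of ISWI, had 3.27 and 5.03 FPKM, against 10.4 and 6.66 FPKM, and fell by 1.02 (SE 0.33, adjusted p = 0.0284). Morf4l2, of the EP400 complex with the acetyltransferase Kat5, had 326.7 and 170.5 FPKM, against 515.6 and 276.5 FPKM; its groups overlapped across sets, and it fell by 0.68 (SE 0.17, adjusted p = 0.0040). None of the 10 further SNF2 ATPases tested passed (0 in limma, 4 at an unadjusted p under 0.05), where 2995 of all 10261 genes had such an unadjusted p. Their most negative log2 fold changes were -0.52 for Rad54l2 and -0.49 for Ercc6l. Other partners without a call had log2 fold changes of -1.02 for Dpf1, -0.90 for Bcl7b, -0.90 for Baz2b, -0.66 for Actr6 and -0.90 for Chd3 (limma adjusted p from 0.0624 to 0.28). Chd4, the main ATPase of NuRD and a CHD protein, named after its values were seen, had 79.7 and 79.5 FPKM in Chd1-/- cells, against 117.96 and 84.0 FPKM in Control cells (limma adjusted p = 0.19).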

How the data were processed

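RNA-seq values of 4 libraries were used, 1 Chd1-/- and 1 Control in each of 2 sets. The deposited values were taken as FPKM. The file headers name no unit, and per the submitters' processing notes Cufflinks 2.2.0, Cuffdiff, TopHat2 2.0.10 and build mm9 were used. Not given in the sources used here are the annotation, the part of spike-ins in the scaling and the use of strand in counting. The libraries are strand-specific per the labels' protocols, and Smarcc1, Smarcd1, Smarcd3, Actl6a, Pbrm1, Ino80e and Ruvbl2 overlap a coding gene on the opposite strand (Baz1a one on its own strand), so their values are less certain. The deposited ratio of Chd1-/- over Control matched the quotient of the value columns to a relative difference of 4.97e-06. FPKM summed to 466994 and 518032 in Chd1-/- cells, against 584520 and 719549 in Control cells. No counting interval is given, as depth is unknown.

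Genes named once in both tables (11728) were joined by symbol. Those with a mean of at least 1 FPKM were tested on log2(FPKM + 0.1), which understates changes of low genes, with limma 3.58.1 in R 4.3.3 (variance trend on level, two-sided, Benjamini-Hochberg over all tested genes). Set was a block, because the deposited ratios are within sets. Across genes, both libraries of a set deviated together from the means of their groups (r = 0.483), over 2 pairs only. With 1 residual degree of freedom, prior degrees of freedom were infinite, so a gene's own spread does not enter its p-value. No label says that the sets are separate cultures beyond naming 2 lines. Exact tests over 2 pairs cannot go below p = 0.5. How often the calls are false in these data was not tested, on the deposited scale or relative to the median of all genes. Members and lists were chosen with earlier results of these data known. Named genes are all members by the rule (values per library for called members, paralogs and the 2 largest changes per complex), and called partners with up to 2 more per list. Alternatives were a pseudocount of 1, no filter and a floor of 5 FPKM, no block, a common prior variance, division by library totals, removal of a lowess trend of the log2 ratio on level (span 0.3) within each set, and leaving out each library or set.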

Additional observations from a re-analysis of the deposited data

How the results depend on the processing

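All 7 called members stayed lower under every alternative run, but neither their calls nor all their sizes were kept. With 1 library left out and no block, log2 fold changes ranged from -1.11 to -0.04 for Smarcd2, -1.51 to -0.14 for Arid1a, -1.32 to -0.32 for Smarcd1, -1.65 to -0.73 for Baz2a and -0.76 to -0.30 for Hells. They ranged from -0.60 to -0.53 for Smarcb1 and -0.90 to -0.77 for Mbd3. The count of fallen members was 1 with a floor of 5 FPKM, 4 (Baz2a, Hells, Mbd3 and Smarcb1) with each set's level trend removed, and 6 with a pseudocount of 1. It was 0 without the replicate block, 0 with one common prior variance and 0 after division by library totals (limma; 5, 5 and 2 members at an unadjusted p under 0.05). Without the block and with 1 library left out in turn it ranged from 0 to 0 (1 to 13 unadjusted); the lone library of an arm is then assumed to vary like the others. Over all genes, 1006 fell and 7 rose. These counts were 225 and 2 with the floor of 5 FPKM, 641 and 5 with the level trend removed, 37 and 50 with library totals, and 901 and 4 with a pseudocount of 1. They were 0 and 0 without the replicate block (1043 unadjusted), with a common prior variance (1718 unadjusted) and in each fit that left out a library (range 0 to 0, 502 to 1084 unadjusted). On the relative scale 22 fell and 15 rose, with 3 and 2 at 5 FPKM, 1 and 0 with the level trend removed, and 0 and 0 without the replicate block (145 unadjusted), with a common prior variance (614 unadjusted) or with a library left out (range 0 to 0, 125 to 338 unadjusted). The prior degrees of freedom were infinite in the reported fit and 11.6 with the floor of 5 FPKM; the cause of the lost calls was not tested.

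With library totals the members' median was -0.32 in set 1, 0.25 in set 2 and -0.039 as the mean of the sets, and 20 members were lower and 17 higher. Leaving out a set gave -0.64 and -0.23 in place of the mean of both, values with no test. Read depth is not in the tables, so what it limits could not be computed.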
